A study of Mus musculus with 6 samples.

Results

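Mitochondrial ribosomal proteins are the protein subunits of the ribosome inside mitochondria, and their genes lie in the nucleus. The rows were chosen by symbol, as those that begin with Mrpl or Mrps followed by a number, which gave 78 of the 17666 genes in the table. Of these, 51 encode proteins of the large subunit and 26 proteins of the small subunit. The remaining row, Mrps36, carries a ribosomal name but encodes a protein of the oxoglutarate dehydrogenase complex. All 78 passed the filter on low values, a mean of at least 1 normalized count over the 6 samples.

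RNA sequencing was done on auditory nerve dissected from the cochleas of C57 mice aged 1.5 to 2.5 months, with both cochleas of a mouse combined in a sample. One label was wildtype and the other FactorB KO, a knockout of complement factor B (gene Cfb), with 3 mice each. No Cre line, transgene or treatment was named for any group. The table gives normalized counts, which are gene counts scaled per sample and rounded, so the number of reads behind a value is unknown; the columns summed to between 38675077 and 41496282. Cfb itself went against the labels, with 55, 39 and 116 normalized counts in wildtype samples and 336, 351 and 376 in knockout samples. Its log2 difference was 2.47 (adjusted p = 0.107 by limma). In the authors' deposited table Cfb was 5.08-fold higher at a false discovery rate of 1.8e-06. Where along Cfb its reads fell is not in the table. Every direction given here is therefore between libraries as labelled. The 12 spiral ganglion neuron genes summed to 332052 to 579921 normalized counts in wildtype libraries and 466694 to 566869 in knockout libraries. The 12 peripheral myelin genes summed to 456454 to 812478 and 456601 to 552442. No gene of the table was listed at 0 in all 6 libraries, so presence alone does not check the tissue. In bulk tissue, fewer cells of a type and less RNA per cell cannot be told apart.

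The mitochondrial ribosome translates the few proteins that the mitochondrial genome encodes, all of them core subunits of the respiratory chain and ATP synthase. It descends from a bacterial ribosome, has lost part of its RNA and has gained proteins that bacteria lack, so its subunits fall into those with bacterial homologues and those found only in mitochondria. Inherited defects of mitochondrial translation often include hearing loss, among them defects of MRPS2, MRPS7, MRPL50 and of the synthetases HARS2 and LARS2. Promoters of nuclear genes for mitochondrial proteins are known for sites of NRF1, of ETS-family factors such as GABP, and of YY1.

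Promoter sequences were at hand for 69 of the 78 genes, in 75 entries from RefSeq (build GRCm38.p6), and were read from 250 bases before the start to 30 after. The 8 letters ACTTCCGG, an ETS-family core, were looked for on both strands and stood in 12 of the 75 entries, or 16%, against 6.07% of the 17023 entries of all genes in the table and 3.72% of all 32851 entries. AAGATGGCG, a YY1 core, stood in 5.33% of the members' entries against 1.67%, and the NRF1 palindrome, GCGC followed by AT and GCGC, in 4.0% against 1.54%. The median GC content of the entries was 58.6% for the members and 58.9% for genes in the table. Below are 4 promoters, chosen after the values were seen to show the ETS and YY1 cores in genes called lower in the authors' deposited table and in genes with a difference near 0. Mrpl51 (ETS core, chr6:125191950-125192229) and Mrpl36 (YY1 core, chr13:73330759-73331038) are the called genes, and Mrpl3 (ETS core, chr9:105053018-105053297) and Mrps27 (both cores, chr13:99344536-99344815) are the others. Capitals mark the ETS core or the YY1 core, in either orientation, and each sequence runs 5′ to 3′ on the plus strand, which is the strand of these genes.
Mrpl51: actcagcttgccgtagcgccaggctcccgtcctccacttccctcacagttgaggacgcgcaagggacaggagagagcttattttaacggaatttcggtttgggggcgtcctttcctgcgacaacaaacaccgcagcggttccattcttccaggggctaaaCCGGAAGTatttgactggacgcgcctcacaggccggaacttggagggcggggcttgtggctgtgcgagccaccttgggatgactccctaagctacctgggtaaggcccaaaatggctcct
Mrpl36: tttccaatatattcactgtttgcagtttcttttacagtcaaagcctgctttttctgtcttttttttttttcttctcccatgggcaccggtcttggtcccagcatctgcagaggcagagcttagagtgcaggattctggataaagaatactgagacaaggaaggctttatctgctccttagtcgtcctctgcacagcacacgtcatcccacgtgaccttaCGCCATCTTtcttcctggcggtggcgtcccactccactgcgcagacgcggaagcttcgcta
Mrpl3: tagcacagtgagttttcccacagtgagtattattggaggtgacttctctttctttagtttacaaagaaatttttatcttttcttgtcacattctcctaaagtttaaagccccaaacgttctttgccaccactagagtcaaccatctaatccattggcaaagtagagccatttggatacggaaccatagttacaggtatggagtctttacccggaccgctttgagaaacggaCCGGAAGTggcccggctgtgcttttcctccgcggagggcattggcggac
Mrps27: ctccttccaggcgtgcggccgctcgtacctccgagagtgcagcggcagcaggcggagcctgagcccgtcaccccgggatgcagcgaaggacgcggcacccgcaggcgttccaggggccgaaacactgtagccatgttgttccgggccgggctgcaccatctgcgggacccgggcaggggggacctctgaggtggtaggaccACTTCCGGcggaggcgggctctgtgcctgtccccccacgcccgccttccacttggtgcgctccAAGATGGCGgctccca
Among members whose 2 labels did not overlap, 7 of 49 had an ETS core, and among those that overlapped 5 of 20. A match is a description of these letters and not evidence of binding.

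Transcripts of the mitochondrial ribosome lay lower in the libraries labelled knockout across nearly the whole set. The log2 difference, knockout minus wildtype on the log2(normalized count + 1) scale, was below 0 for 75 of the 78 members, against 49.3% of all genes, and its median was -0.30, against 0.01 over all genes. The quartiles of the members were -0.44 and -0.22. In 56 of the 78, or 71.8%, each library labelled knockout was below each library labelled wildtype, against 14.9% of all genes; no member was higher in every knockout library, against 13.6% of all genes. None of these differences passed an adjusted p of 0.05 in limma with Benjamini-Hochberg adjustment over all genes, which called 0.158% of genes, 0.0566% as lower; the lowest adjusted p of a member was 0.151. Before adjustment, 38 members were lower with p under 0.05 and 0 higher, against 9.2% and 10.8% of all genes. At a false discovery rate under 0.05, 12 members were called in the authors' deposited table, all lower, against 7.39% of rated genes called in all, 3.25% lower and 4.14% higher.

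**Figure D1:**
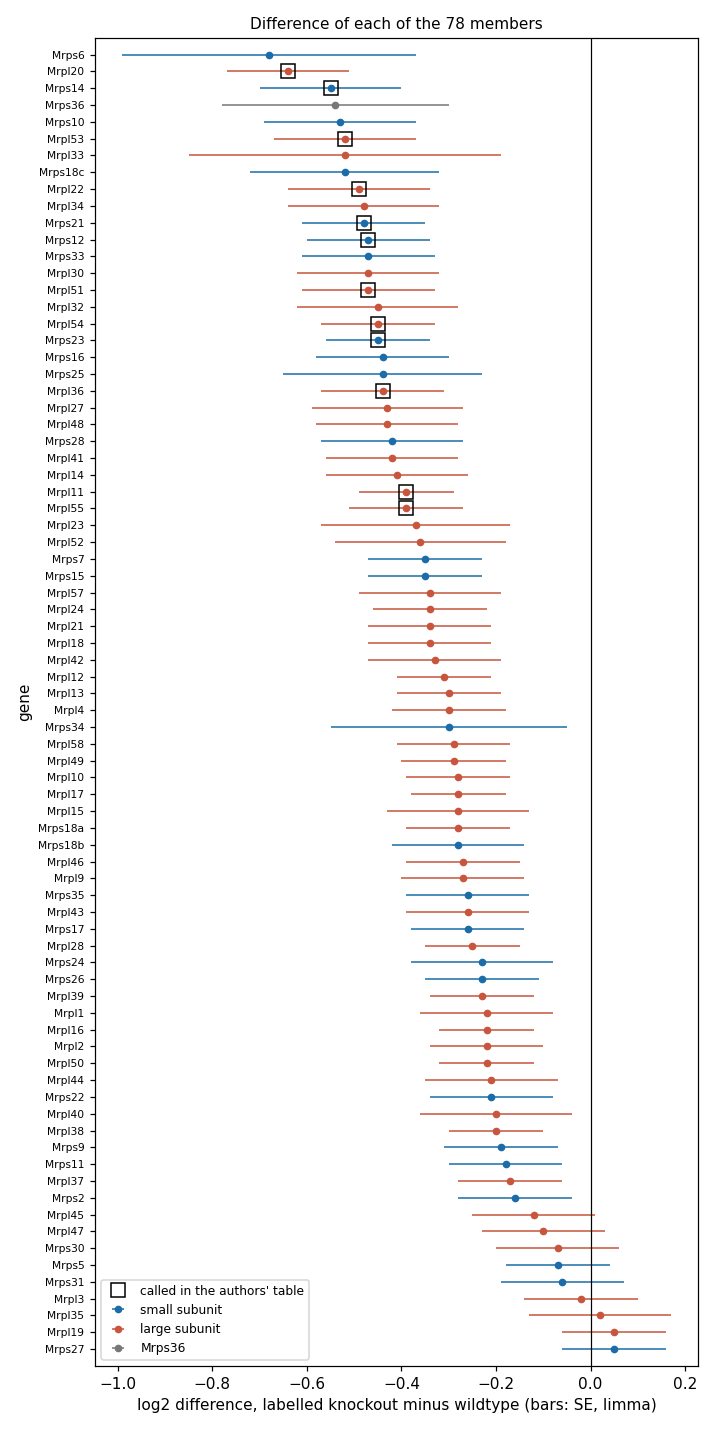
Difference between labels for each of the 78 members, ordered by size. The x axis is the log2 difference (knockout minus wildtype), bars are standard errors from limma, blue marks the small and red the large subunit, grey marks Mrps36, and squares mark the 12 genes called in the authors' deposited table. The points run from -0.68 for Mrps6 to 0.05 for Mrps27, and 3 lie above 0.

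In the large subunit, 49 of 51 members had a difference below 0, against 49.3% of all genes. Of the 51, 39 were lower with no overlap, against 14.9%, and 27 were lower at an unadjusted p under 0.05, against 9.2%. The subunit's median was -0.30. Members with bacterial homologues (30 genes) had a median of -0.31 and those found only in mitochondria (20 genes) one of -0.28; Mrpl55 was left out of this division.

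Mrpl20, whose bacterial homologue binds ribosomal RNA early in assembly of the large subunit, had 1333, 1727 and 1548 normalized counts in wildtype replicate 1, 2 and 3, and 1062, 963 and 927 in knockout replicate 1, 2 and 3. The lowest wildtype value was above the highest knockout value. The mean was 35.9% lower, a log2 difference of -0.64 (SE 0.13), with an adjusted p of 0.151 by limma, and in the authors' deposited table it was 1.56-fold lower with a false discovery rate of 0.00323. The gene lies on chromosome 4 at 155802878 to 155808831 (GRCm38, the same assembly as mm10).

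Mrpl11, at the base of the stalk where translation factors dock, had 1299, 1345 and 1299 normalized counts in the wildtype libraries and 1035, 1000 and 966 in the knockout libraries. The labels did not overlap, and the spread within each was narrow, with SDs of 26.6 and 34.5 (n = 3 each). Its log2 difference was -0.39 (SE 0.10; adjusted p = 0.162 by limma), and the authors' deposited table gave it 1.31-fold lower at a rate of 0.00964. Mrpl22, a homologue of a protein lining the exit tunnel, was among the scarcest members, with 291, 303 and 279 against 205, 219 and 197. Those labels again did not overlap, and the authors' deposited table had it 1.40-fold lower at a rate of 0.0432. Mrpl36, a small zinc-binding subunit, had 941, 1166 and 985 against 789, 773 and 704, also with no overlap; it was 1.36-fold lower at a rate of 0.0466 in the authors' deposited table.

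Of the large subunit proteins that bacteria lack, the authors' deposited table called Mrpl54, Mrpl53 and Mrpl51. Mrpl54 had 837, 985 and 957 normalized counts against 665, 710 and 649. Mrpl53 had 850, 1156 and 897 against 695, 672 and 638. Mrpl51 had 1443, 1822 and 1902 against 1264, 1155 and 1282. In each the labels did not overlap and the knockout libraries spread less, with SDs of 31.6, 28.7 and 68.7 against 78.6, 164.8 and 245.2 (n = 3 each). Their log2 differences were -0.45, -0.52 and -0.47. The narrower spread was not particular to these genes. Limma's library weights, which over all genes are higher for libraries that spread less, were 1.81, 2.1 and 1.85 in the knockout libraries. In wildtype replicate 1, 2 and 3 they were 0.865, 0.744 and 0.221. GENCODE places 88.0% of the exonic length of Mrpl53 within another protein-coding gene model on the same strand, which is not a row of the table. Mrpl55 was the eighth gene of the large subunit called in the authors' deposited table, 1.31-fold lower at a rate of 0.0471; it had 807, 939 and 862 against 690, 655 and 647.

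The most abundant large subunit rows by normalized count were those of the stalk. Mrpl12, which binds translation factors on the ribosome and also the mitochondrial RNA polymerase, had 2362, 2764 and 2450 against 1964, 2043 and 2095. Mrpl10, which anchors Mrpl12, had 2428, 2553 and 2193 against 1852, 2088 and 1948. Neither pair of labels overlapped, and the log2 differences of -0.31 (SE 0.10) and -0.28 (SE 0.11) had adjusted p-values of 0.194 and 0.218 by limma. Mrpl45, which holds the ribosome at the inner membrane, overlapped between the labels, with 1513, 1913 and 1552 against 1489, 1617 and 1457. Mrpl23, Mrpl57 and Mrpl52, the other scarce members named by the rule, had log2 differences of -0.37, -0.34 and -0.36, each with no overlap. Mrpl23 and Mrpl57 were at -0.24 and -0.21 without wildtype replicate 2, and Mrpl52 at -0.18 without wildtype replicate 3.

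In the small subunit, 25 of 26 members had a difference below 0, against 49.3% of all genes. Of the 26, 16 were lower with no overlap, against 14.9%, and 11 were lower at an unadjusted p under 0.05, against 9.2%. The subunit's median was -0.33, with -0.35 for the 17 members with bacterial homologues and -0.26 for the 9 found only in mitochondria. Which of these subsets was lower was not tested.

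Mrps23, found only in mitochondria, had 1674, 2056 and 1900 normalized counts in the wildtype libraries and 1385, 1386 and 1324 in the knockout libraries. The labels did not overlap. The log2 difference was -0.45 (SE 0.11; adjusted p = 0.162 by limma), and the authors' deposited table gave it 1.37-fold lower at a rate of 0.0172. Mrps14, of the head of the small subunit, had 1271, 1751 and 1483 against 1086, 1054 and 926. It showed no overlap and was 1.47-fold lower in the authors' deposited table at a rate of 0.0318. Mrps21 had 1259, 1587 and 1578 against 1037, 1071 and 1041, and Mrps12, the homologue of the decoding-centre protein that sets translational accuracy in bacteria, had 934, 1153 and 1028 against 758, 805 and 684. Both were without overlap and were 1.40- and 1.39-fold lower in the authors' deposited table, at rates of 0.0244 and 0.0379. Mrps33, found only in mitochondria, had 1238, 1529 and 1198 against 1059, 915 and 880 and a rate of 0.0606 in the authors' deposited table, above the threshold.

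Some small subunit rows were set by single libraries or share sequence with other genes. Mrps6 had 2206, 3370 and 5604 normalized counts in wildtype replicate 1, 2 and 3 against 2303, 1963 and 2248, so its labels overlapped in spite of the largest mean difference of the set. Its log2 difference of -0.68 became -0.33 without wildtype replicate 3. Slc5a3, an inositol transporter gene that shares exonic sequence with Mrps6 on chromosome 16, had 7043, 8237 and 18664 against 9529, 7502 and 11600, so it too was highest in wildtype replicate 3. Mrps25 had 2316, 3708 and 2166 against 2052, 1940 and 1856, and its -0.44 became -0.20 without wildtype replicate 2. GENCODE places 69.8% of its exonic length opposite Nr2c2, which had 4061, 2106 and 3521 against 4615, 4539 and 5006 and was thus lowest in the library where Mrps25 was highest. Strand use in the counting is not given in the sources used here, so reads of genes on opposite strands cannot be told apart. Of the members, 25 share over 5% of their exonic length with another gene; their median was -0.30, as was that of the other 53. With lower values, 14 of the 25 did not overlap between the labels, against 42 of the 53 and 14.9% of all genes. The authors' deposited table called 1 of the 25 and 11 of the 53, all lower, against 3.25% of rated genes called lower. A difference between these subsets was not tested. RefSeq also lists pseudogenes of Mrpl23, Mrpl27, Mrpl48 and Mrps36, none of them a row of the table, and reads of these 4 genes are uncertain where copies are alike.

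The scarce small subunit members named by the rule were Mrps28, Mrps18c, Mrps35 and Mrps22. Their log2 differences were -0.42, -0.52, -0.26 and -0.21, and Mrps22 was the one of them whose labels overlapped. Of the members whose place differs from their name, Mrps18a and Mrps30 sit in the large subunit. Mrps18a had 1656, 1972 and 1684 normalized counts against 1381, 1538 and 1460 with no overlap, and Mrps30 had 728, 866 and 748 against 758, 669 and 797, which overlapped. Mrps18b, a paralogue of Mrps18a in the small subunit, had 669, 845 and 742 against 654, 625 and 578 with no overlap. Mrps36, outside the ribosome, had 295, 463 and 315 against 242, 289 and 199, also with no overlap, and its difference of -0.54 became -0.34 without wildtype replicate 2.

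Of the members whose human counterparts cause hearing loss, Mrps7 and Mrpl50 did not overlap between the labels and Mrps2 did. Mrps7 had 1473, 1759 and 1737 against 1229, 1355 and 1301 (log2 difference -0.35, SE 0.12). Mrpl50 had 1733, 1764 and 1769 against 1615, 1442 and 1464 (-0.22, SE 0.10), and Mrps2 had 1457, 1469 and 1232 against 1267, 1326 and 1129 (-0.16, SE 0.12). The adjusted p-values by limma were 0.189, 0.268 and 0.506, and none of the 3 was called in the authors' deposited table. The list of 15 hearing loss genes of mitochondrial gene expression includes these 3. Of the 15, 0 were called by limma or by the authors' deposited table. Before adjustment 1 was lower with p under 0.05, against 9.2% of all genes, and the median of the 15 was -0.10. Lars2, the most abundant of them, had 5273, 3418 and 8335 against 3484, 3679 and 3135, with overlap and a wide spread among the wildtype libraries.

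The 3 members with a difference above 0 were Mrps27, Mrpl19 and Mrpl35, chosen here after their values were seen. Mrps27, which carries RNA-binding pentatricopeptide repeats, had 911, 938 and 855 against 873, 964 and 971. Mrpl19 had 1149, 1207 and 1036 against 1116, 1180 and 1203, and Mrpl35 had 1559, 1632 and 1138 against 1467, 1461 and 1407. All 3 overlapped, with log2 differences of 0.05, 0.05 and 0.02 and SEs of 0.11, 0.11 and 0.15. Mrpl3, of the large subunit, had 1732, 1684 and 1400 against 1606, 1505 and 1608, also overlapping.

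**Figure D2:**
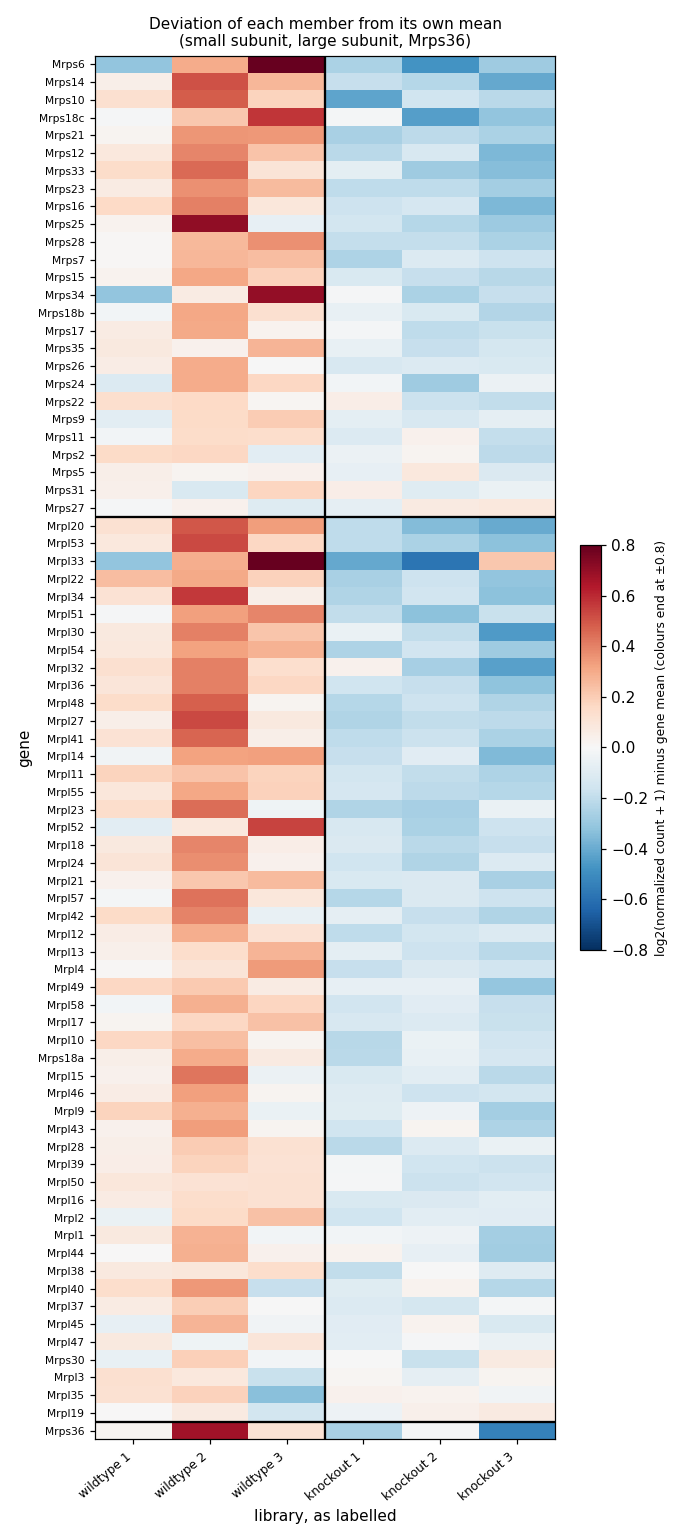
Each row is a member and each column a library; colour is log2(normalized count + 1) minus the mean of that gene over the 6 libraries, red above and blue below, and black lines part the labels and the subunits. The column of wildtype replicate 2 is red in most rows, and the 3 columns labelled knockout are mostly blue.

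Seen by library, the 78 members together summed to 85719, 101526 and 92736 normalized counts in wildtype replicate 1, 2 and 3 and to 75790, 75225 and 72797 in knockout replicate 1, 2 and 3. The sums did not overlap between the labels. Wildtype replicate 2 stood highest, with the top value of its label in 57 members. The median deviation of the members from their own means was 0.06, 0.29 and 0.12 in the wildtype libraries and -0.13, -0.15 and -0.20 in the knockout libraries, on the log2 scale. Both subunits moved together: the small one had 0.04, 0.30 and 0.17, then -0.09, -0.18 and -0.21, and the large one 0.08, 0.29 and 0.10, then -0.14, -0.15 and -0.18. The set's median difference was -0.24 without wildtype replicate 2 and -0.33 without wildtype replicate 3. The count of 38 at an unadjusted p under 0.05 was 22 without wildtype replicate 2 (6.05% of all genes), 19 and 20 without knockout replicate 1 and 2 (5.91% and 4.38%), and 11 without knockout replicate 3 (4.17%).

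Levels per length differed widely among members. In the wildtype libraries the mean normalized count per kilobase of transcript had a median of 804.4 over the members, and in the knockout libraries one of 658.6. Mrps6 (4405 per kilobase, wildtype), Mrps21 (3022) and Mrpl20 (2011) stood highest. Mrpl47 (137.9) and Mrps35 (140.9) stood lowest; Mrpl47 was chosen after its values were seen. These levels rest on the longest RefSeq-linked transcript of each gene in GENCODE, and a gene that mainly uses a shorter form would have a higher level per kilobase.

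Transcript length moved with the difference between labels, over all genes and among the members. The members were short, with a median transcript of 1253 nucleotides against 2864 over all genes. With genes cut into 10 bins of near-equal number by length, in the shortest bin (up to 1126 nucleotides) the median log2 difference over all genes was -0.31, and in the longest bin (from 6322 nucleotides) it was 0.38. Of the members, 31 fell in the shortest bin, with a median of -0.43, and 26 of them did not overlap, against 29.9% of all genes there. The next bin (1127 to 1588 nucleotides) held 18 members, with a median of -0.26 against -0.21 for all genes in it, and 12 of the 18 did not overlap, against 27.1%. The other 29 members were spread over 8 bins of at most 6 members each, and in each of these the members' median lay below that of all genes. Across the 78 members Spearman's rho between length and difference was 0.51, and across 17480 genes it was 0.40; both are descriptions over genes that share the same libraries.

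**Figure D3:**
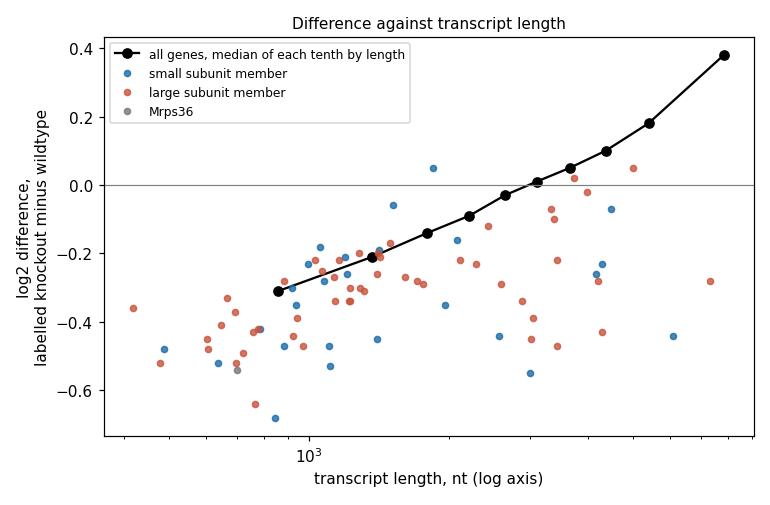
Log2 difference (knockout minus wildtype) against transcript length in nucleotides on a log axis. Black points are the medians of all genes in 10 bins by length, placed at the median length of each bin; coloured points are the 78 members. The black line climbs from -0.31 to 0.38, and in each of the 10 bins the median of the members is below that of all genes.

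By library, genes with transcripts under 1 kilobase (1319 genes) had median deviations of -0.01, 0.28 and 0.22 in the wildtype libraries and -0.11, -0.18 and -0.18 in the knockout libraries. Genes over 5 kilobases (3164) had the opposite signs in all but wildtype replicate 1, with -0.01, -0.31 and -0.10, then 0.13, 0.16 and 0.15. Removing a smooth curve of deviation on transcript length from each library brought the members' median difference from -0.30 to -0.13, against -0.01 over all genes. After that step 67 of the 78 members were below 0 (50.9% of all genes), 32 were lower with no overlap (13.7%), 1, Mrps27, was higher with no overlap, and 13 were lower at an unadjusted p under 0.05 (7.61%). With coding length in place of transcript length, the median was again -0.13, 24 were lower with no overlap (13.1%), 1, Mrpl19, was higher with no overlap, and 3, Mrpl20, Mrps23 and Mrps14, had an unadjusted p under 0.05 (6.84%). Mrpl20 was at -0.34 after the correction for transcript length and at -0.37 after that for coding length, and Mrps23 at -0.26 and -0.20. Limma called 0 members after either step. What sets the length trend was not tested, and it cannot be told apart from the label.

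**Figure D4:**
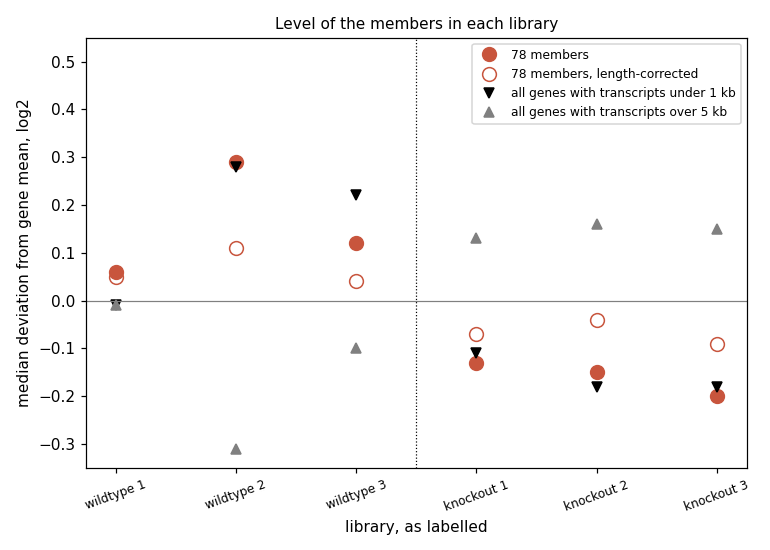
Median deviation from each gene's own mean, log2, by library. Filled circles are the 78 members, open circles the members after the length correction, triangles pointing down all genes under 1 kilobase and triangles pointing up all genes over 5 kilobases. The members follow the short genes, from 0.29 in wildtype replicate 2 to -0.20 in knockout replicate 3.

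Ribosomal partners that carry other names were looked at as a list of 5 genes, with Dap3, Chchd1, Ptcd3, Aurkaip1 and Gadd45gip1. All 5 had a difference below 0, with a median of -0.13, 0 were called by limma and 1 in the authors' deposited table. That gene, Aurkaip1 of the small subunit, had 2042, 2455 and 2431 normalized counts against 1624, 1710 and 1564 and was 1.41-fold lower there at a rate of 0.00905. Dap3, a GTP-binding protein of the small subunit, had 3188, 3100 and 2859 against 2804, 2859 and 3033, which overlapped.

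The rest of the mitochondrial expression machinery was described as 4 lists. The 16 translation factors had a median of -0.02, with 0 called by limma, 0 in the authors' deposited table and 0 at an unadjusted p under 0.05; Gfm1, an elongation factor, had a difference of 0.12 and Oxa1l, the inner membrane insertase, one of -0.21. The 20 mitochondrial tRNA synthetase and amidotransferase genes had a median of -0.05, with 0 called by limma and 3 higher and 2 lower at an unadjusted p under 0.05, beside 10.8% and 9.2% of all genes. Mars2, the methionine enzyme, had 321, 241 and 271 normalized counts against 405, 433 and 385 and a fold of 1.47 upward in the authors' deposited table, at a rate of 0.0404. Its transcript of 11294 nucleotides is long, and its log2 difference of 0.56 was 0.01 after the length correction. The 29 genes of ribosome assembly and RNA modification had a median of -0.15, with 0 called by limma or in the authors' deposited table. Of these 29, 3 were lower at an unadjusted p under 0.05, beside 9.2% of all genes. In this list 23 genes had a difference below 0 and 6 above, against 49.3% of all genes below. With no overlap, 9 were lower and 1 higher, against 14.9% and 13.6% of all genes. After the length correction 5 were lower with no overlap, against 13.7%. Lrpprc, which stabilises mitochondrial messenger RNA, was among those above 0, with a difference of 0.21. The 12 genes of mitochondrial DNA transcription and replication had a median of 0.07, with 0 called by limma. Of these 12, 2 were higher at an unadjusted p under 0.05, beside 10.8% of all genes. The topoisomerase gene Top1mt, the 1 gene of this list called in the authors' deposited table, had 382, 356 and 382 normalized counts against 553, 517 and 538, a 1.44-fold change upward there at a rate of 0.0054. These lists have longer transcripts than the members, with medians of 2290, 3282, 2262 and 2644 nucleotides, and after the length correction their medians were 0.01, 0.00, -0.04 and -0.04. A difference between these lists and the members was not tested.

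Among 11 regulators of mitochondrial biogenesis, 0 passed by limma and 3 were higher before adjustment with p under 0.05, beside 10.8% of all genes. The list's median was 0.08, with 7 genes above 0 and 4 below. Nrf1, Gabpa and Yy1, named for the promoter sites above, had differences of 0.08, -0.03 and -0.05, each overlapping between the labels. Of the 11, 2 were called in the authors' deposited table. Ppargc1b, a coactivator of nuclear receptors, had 360, 145 and 224 normalized counts against 451, 581 and 581 and was 2.21-fold higher at a rate of 0.0215. Hcfc1, a chromatin cofactor, had 6273, 4260 and 6045 against 8033, 8893 and 8253 and was 1.52-fold higher at a rate of 0.0285. After the length correction the log2 difference of Ppargc1b went from 1.23 to 1.17 and that of Hcfc1 from 0.62 to 0.25. Of the genes of the mitochondrial genome, 15 were looked for under their usual symbols and 0 were found, so they were not analysed here.

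The families of cytosolic ribosomal proteins and complex I subunits, chosen for comparison after the data were seen, also lay lower. The 82 cytosolic ribosomal protein genes had a median of -0.41, and 36 of them were lower with no overlap. The 36 complex I subunit genes had one of -0.44, and 31 of them were lower with no overlap, against 14.9% of all genes. Median transcripts of the 2 families were 831 and 812 nucleotides long. After the length correction their medians were -0.14 and -0.15, beside -0.13 for the mitochondrial ribosome. After that step 12 of 82 and 17 of 36 were lower with no overlap, against 32 of the 78 members and 13.7% of all genes. Limma called 0 in either family. At an unadjusted p under 0.05, 34 and 28 were lower, against 9.2% of all genes. The authors' deposited table called 7 and 19, all lower, against 3.25% of rated genes called lower.

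The marker lists of other cell types gave these values beside the members. The red cell list (11 of 12 genes measured) was below 0 in 11 and summed to between 11234 and 35200 normalized counts in the wildtype libraries and between 2874 and 4261 in the knockout libraries. The organ of Corti list was above 0 in 12 of 12, with sums of 12366 to 27307 against 23238 to 39283. Of the 12, 3 were higher with no overlap, against 13.6% of all genes. The list's median deviation was -0.80, -1.52 and 0.13 in the wildtype libraries and 1.09, 0.92 and 0.02 in the knockout libraries. Its median transcript was 7233 nucleotides long, and its median difference of 1.45 was 1.30 after the length correction. Peripheral myelin (9 of 12 below 0, sums of 456454 to 812478 against 456601 to 552442), spiral ganglion neuron (7 of 12 above 0, 332052 to 579921 against 466694 to 566869), fibroblast (7 of 10 below 0, 452628 to 701271 against 375031 to 469499), macrophage (6 of 10 below 0, 9440 to 9856 against 8993 to 10340) and skeletal muscle (9 of 10 below 0, 959 to 1668 against 1912 to 2194) were also measured. In the muscle list the 1 gene above 0 was the titin gene Ttn, with 816, 550 and 790 normalized counts against 1756, 1755 and 2104, which made up most of the sum; its transcript is 100404 nucleotides long, and its log2 difference of 1.40 was -0.35 after the length correction. Most of the fibroblast sum was Coch, with 360455, 405170 and 620615 against 344060, 300615 and 396121. The median deviation of the muscle list was -0.63, 2.39 and 0.06 in wildtype replicate 1, 2 and 3. In knockout replicate 1, 2 and 3 it was -0.18, -0.12 and -1.27. It was thus highest in wildtype replicate 2, where the members also stood highest. That library was also the highest for peripheral myelin (0.35) and for all genes under 1 kilobase (0.28), and the lowest for organ of Corti. The red cell, macrophage, fibroblast and spiral ganglion neuron lists were highest in other libraries. As with every gene of the table, no measured marker was listed at 0 in all 6 libraries. Their part in the lower levels of mitochondrial ribosomal transcripts was not tested.

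The members lie on many chromosomes, and 8 of them share chromosome 17 with Cfb. Mrps18b, at 35910380 to 35916440, is the nearest, with its start 1.05 Mb from that of Cfb at 34856374. The other 7, Mrpl28, Mrps34, Mrpl14, Mrps18a, Mrpl2, Mrps10 and Mrpl18, start between 8.73 and 21.95 Mb away. All of the 8 except Mrps34 were lower with no overlap, as were 56 of the 78 members and 14.9% of all genes. None of the 8 is among the 12 called in the authors' deposited table, where Mrps10 had a rate of 0.0502, just above the threshold.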

How the data were processed

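RNA-seq measured transcripts in 6 auditory nerve samples, 3 per label, grouped by their titles. The submitters' processing notes list Partek, TopHat2, DESeq2 and mm10 with no version or role. Filters, annotation release and strand setting are not given in the sources used here. Each deposited value is a score made by the authors, a gene count put on a common scale over samples and then rounded, read as such from the values (median-of-ratios factors 1.0038 to 1.0068; 99.8% of 13938 genes with both means over 50 within 1% of the deposited fold). The authors also deposited a signed fold change and a false discovery rate, which 2061 genes lack, per the file headers. Of the columns with sample values, 0 went unused. Depth is unknown, so no interval for counting error is given and no count test was run. Taken as if they were raw counts, the values of no 2 libraries agreed within sampling noise (chi-square per gene at least 23.7 for genes whose mean reached 20). With depth unknown, the true sampling noise cannot be set.

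Limma 3.58.1 in R 4.3.3 was fitted on log2(value + 1) for genes with a mean of at least 1 (all 17666), with label as the term, eBayes with a trend on the mean, and Benjamini-Hochberg adjustment at 0.05. Fold changes on this scale understate the change of low genes. Limma was tested on simulated data with known changes. An exact two-sided permutation test on 3 and 3 mice has a smallest p of 0.1, so none is given. A p-value here sets the difference between labels against the spread between mice within a label, which eBayes draws toward a trend over all genes. Transcript lengths come from GENCODE vM21 by symbol (17480 genes, 98.9%, and all 78 members), coding lengths for 92.4%. Positions and promoters come from RefSeq GRCm38.p6.

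The members, the lists, the named-gene rule and the alternatives were chosen with earlier results of these data known. The rule names members called by limma or by the authors, the 2 most abundant, 2 scarcest and 2 of smallest p in each subunit and origin, the hearing loss genes, and rows whose place differs from their name; from other lists, up to 4 called genes or the 2 most abundant. Genes the text marks as chosen after their values were seen fall outside it. So do members named for their place on chromosome 17 and genes named for shared sequence. Regulators named for their promoter sites and markers named for their part in a sum also fall outside it. Same-numbered mice are different animals and were not treated as pairs.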

Additional observations from a re-analysis of the deposited data

How the results depend on the processing

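Limma called 0 members under each of the 19 alternatives, where the smallest adjusted p of a member ran from 0.0565 to 0.485; the authors' deposited table called 12. Leaving out 1 library at a time gave 0 to 0 members passing, 11 to 45 at an unadjusted p under 0.05 (4.17% to 12.9% of all genes lower), 57 to 64 lower in every knockout library (17.0% to 24.2% of all genes, against 14.9% with all 6), and a median difference of -0.36 to -0.24. The pseudocount (0.5 or 10), the filter, upper quartile or quantile scaling and the variance model left each of these 4 results within 1.5 times its value, or the median within the spread between replicates (SD 0.091). Correcting for transcript length, for length and GC, or for coding length gave 13, 16 and 3 members at an unadjusted p under 0.05, 32, 32 and 24 lower in every knockout library, and medians of -0.13, -0.15 and -0.13. The latter 2 corrections were chosen after seeing the data, as was applying the alternatives to the count of members lower in every knockout library. By construction, these corrections remove any trend of the difference with length.

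With the replicate block, 23 members had an unadjusted p under 0.05 (6.5% of all genes lower) and 0 passed; the numbers do not pair the mice, since same-numbered libraries correlated at -0.03, 0.09 and 0.20 in their deviations, and not every library correlated best with its own number.

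Of 608 values of the 32 named members over the alternatives, 600 kept their direction and their side of the threshold and 8 changed sign, all within 0.09 of 0. Mrpl52 was 0.01 and Mrps22 0.02 with the length correction; Mrps22 was 0.09, Mrpl50 0.02 and Mrps30 0.00 with length and GC; Mrpl50 was 0.03 and Mrpl45 0.01 with coding length; Mrps30 was 0.00 without wildtype replicate 2. The cause of these sign changes was not tested. Depth is unknown and sets no stated limit here.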
